A study of Mus musculus with 12 samples.

Results

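Nucleoredoxin (Nxn), the thioredoxins, their reductases and inhibitor, and the Dishevelled proteins that nucleoredoxin binds were followed in polyribosomal RNA of mouse hippocampus. The set was named by symbol as Nxn, Txn1, Txn2, Txnrd1, Txnrd2, Txnip, Dvl1, Dvl2 and Dvl3. It makes up 9 of the 24421 genes counted, and all 9 passed the filter on low counts that left 14564 genes tested. The members were chosen by the Nxn counts in fear case and control, whose difference was already known, so the values of Nxn in the 2 groups are given as a description, without a test of the difference. Relations within a group were not used in that choice.

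The 12 libraries came from C57/Bl6 mice 6 weeks old, 6 labelled fear case and 6 labelled control. One protocol text stands for both groups and describes 8 min in a context new to the mouse, then 7 min in the home cage, with the hippocampus taken at 15 min. The labels leave out how control mice were handled and whether any mouse received a shock. The labels do not say that each library is a separate mouse, and a p-value then reflects only the spread among these samples, which may be technical. RNA was taken from the pellet of a 4 h spin through 1 M sucrose, which holds ribosome-bound RNA and whatever else sediments as fast, and unfractionated RNA was not analysed here.

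Thioredoxins reduce disulfide bonds in other proteins through a pair of active-site cysteines, and thioredoxin reductases recharge them with electrons from NADPH. Txnip, an alpha-arrestin, binds reduced thioredoxin and blocks it. Nucleoredoxin carries a thioredoxin-like domain and is known, from mouse cells, to bind Dishevelled and hold it back from Wnt signalling. Dishevelled relays the signal of Frizzled receptors to the beta-catenin branch and to the planar cell polarity branch, and in the hippocampus Wnt signalling is known for its part in synapse formation and in the production of new granule neurons.

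The coding stretch around the active site shows what relates Nxn to the thioredoxins, and it is printed for Nxn and for the cytosolic and mitochondrial thioredoxin. Each sequence is the coding strand of GENCODE vM21 (GRCm38), with the 2 cysteine codons in capitals. The stretch spans chr11:76274045-76274532 (minus strand) for Nxn, chr4:57951806-57951850 (minus strand) for Txn1 and chr15:77924636-77927705 (minus strand) for Txn2, and in Nxn and Txn2 it crosses an exon junction.
Nxn: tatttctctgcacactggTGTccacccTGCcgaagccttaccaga
Txn1: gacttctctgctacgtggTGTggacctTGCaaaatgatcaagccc
Txn2: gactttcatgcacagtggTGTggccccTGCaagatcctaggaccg
The tryptophan codon (tgg) just before the first cysteine is codon 204 of 436 in Nxn, 31 of 106 in Txn1 and 89 of 167 in Txn2, the stop codon included. In all 3 genes the cysteine codons are TGT and TGC and stand the same distance apart.

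Both reductases are selenoproteins, whose coding sequence reads a TGA codon as selenocysteine close to its end. The last codons of Txnrd1 (chr10:82896016-82896045, plus strand) and Txnrd2 (chr16:18477751-18477780, plus strand) are printed to show that codon, in capitals. It is codon 612 of 614 in Txnrd1 and 526 of 528 in Txnrd2.
Txnrd1: gacatcctccagtctggctgcTGAggttaa
Txnrd2: gagcctactgtgactggttgcTGAggctaa

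Before the members' values, the state of the libraries has to be given. Library totals on genes were 18.6 M to 44.2 M counts, with a median of 21.6 M. Fear case 6 stood apart as the deepest library, with 12.5% of its counts on Rn45s, the ribosomal RNA precursor, against 4.55% at the lowest. On the log2 scale, each library was set against the mean of the other libraries of its group. In fear case 6 the 953 tested genes with under 1.5 kb of exon sat at a median of -0.22. The 4589 genes over 6 kb sat at 0.10, and control 6 leaned the same way at -0.15 and 0.08. Every member is therefore given with and without fear case 6. The tissue label was checked on markers: Prox1 of dentate granule neurons averaged 125.0 ± 8.04 CPM in fear case and 114 ± 12.4 CPM in control, Wfs1 of CA1 neurons 67.7 ± 13.6 and 74.6 ± 13.7 CPM, and Slc17a7, the vesicular glutamate transporter, 560 ± 56.1 and 603 ± 78.7 CPM (SD, n = 6 each). The rapid activity-induced genes Fos, Npas4 and Arc rose in fear case, by 2.25, 2.06 and 0.80 on the log2 scale (edgeR quasi-likelihood test, adjusted p = 1.1e-05, 2.96e-07 and 0.000356).

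Nxn was lower in fear case than in control. Its level ran from 6.64 through a median of 7.41 to 8.40 CPM (counts relative to the scaled library size) in fear case, against 10.04 through 12.6 to 14.03 CPM in control. No fear case library reached the lowest control, and the nearest pair was fear case 2 at 8.40 and control 2 at 10.04 CPM. The means were 7.52 ± 0.663 CPM in fear case and 12.2 ± 1.43 CPM in control (SD, n = 6 each), a log2 fold change of -0.70 (SE 0.12), or 0.614-fold. These levels rest on 156 to 284 counts per fear case library and 189 to 312 counts per control library.

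In the fit across all genes, at an adjusted p under 0.05, Nxn was the 1 member on the lower side and 0 members were on the higher side, which for Nxn restates how the set was chosen. Over all genes tested, 0.0549% were called lower and 0.0481% higher. The members' count is not read against these shares. Likewise 1 of the 9 members, Nxn, had all its fear case libraries below all controls, which again restates the choice. The share over all genes tested was 0.33%, and the members' count is not read against it. The median log2 fold change of the members, Nxn included, was -0.06, beside -0.0046 over all genes tested.

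**Figure D1:**
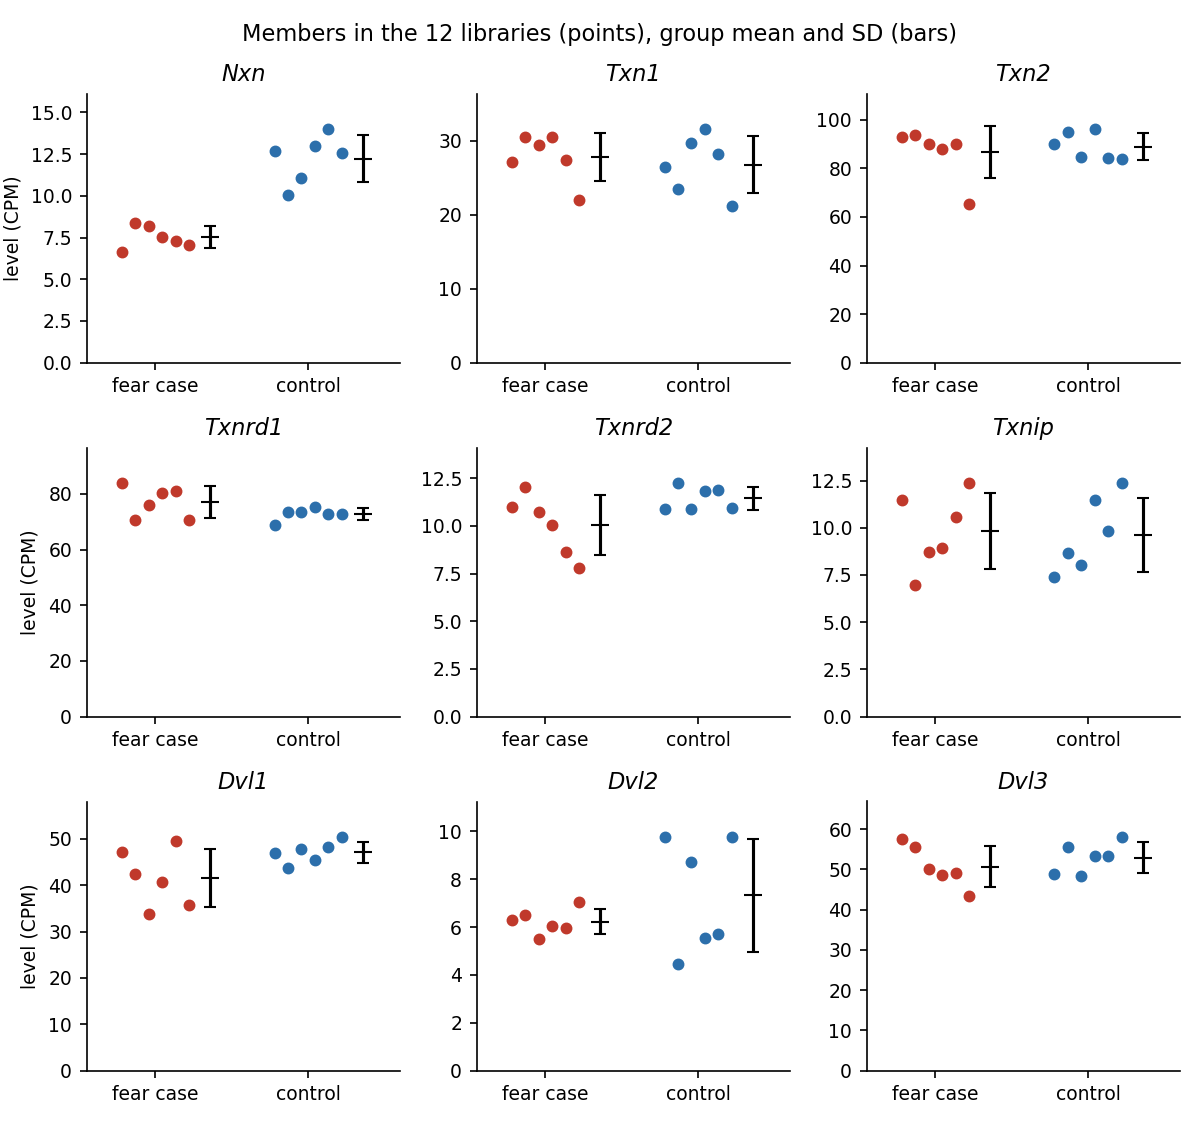
Level of each member in CPM (y axis from 0) in the 6 fear case and 6 control libraries, ordered by library number within a group, with the mean and SD as bars. In Nxn the fear case points (6.64 to 8.40 CPM) lie below the control points (10.04 to 14.03 CPM), while in the other 8 members the groups overlap and Txn2 has 1 low point, fear case 6 at 65.5 CPM.

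The Nxn gene lies on chr11:76257198-76399140 (minus strand, GRCm38). Its exons overlap no other annotated gene, and none of its 3200 stretches of 40 bases, the read length, occurs in another annotated gene. Without fear case 6 the log2 fold change of Nxn was -0.69 (SE 0.13).

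Markers of tissue at the ventricles also leaned lower in fear case, and their part in the Nxn difference was not tested. Of 20 markers of choroid plexus epithelium, which lies within the ventricle beside the hippocampus, 20 had a negative log2 fold change. Of these, 0 passed the test across all genes and 18 had an unadjusted p under 0.05, as did 7.14% of all genes tested. Markers of the same tissue measured in the same libraries are not separate pieces of evidence. Their summed level ran from 109 to 2251 CPM in fear case and from 1093 to 2975 CPM in control, and the highest fear case library apart from fear case 6 had 592 CPM. No marker of this list was at 0 throughout: Ttr, the transthyretin gene, ran from 7.41 to 1319 CPM in fear case and from 641 to 1978 CPM in control, and Kl, the klotho gene, averaged 25.1 ± 17.4 CPM in fear case and 50.8 ± 12.2 CPM in control (log2 fold change -0.9996, SE 0.27, adjusted p = 0.218). Fear case 6 had a choroid plexus score (mean log2 CPM of the 20 markers) of 4.09, inside the control range of 3.31 to 4.38. Its Nxn level of 7.08 CPM lay below every control. Fear case 6 was also the deepest library, with 12.5% of its counts on Rn45s, and nothing on the Nxn difference is read from it.

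Within the groups, the relation of Nxn to the choroid plexus score did not pass after adjustment. In fear case Pearson's r was -0.77 (exact permutation p = 0.0847, adjusted p = 0.243 over 18 relations of the 9 members in 2 groups) and Spearman's rho was -0.89 (exact p = 0.0333, adjusted p = 0.15, n = 6). In control r was 0.14 (exact p = 0.767, adjusted p = 0.971) and rho 0.03 (exact p = 1, n = 6). Without the 2 libraries farthest from the median score, r was -0.71 in fear case and 0.16 in control. With the score as a covariate in the fit the log2 fold change of Nxn was -0.82 (SE 0.17). In that fit 0 of the 9 members and 0 genes in all were called lower, and 5 genes were called higher. Apart from fear case 6 the score ran from -0.68 to 2.48 in fear case, below every control. Score and group therefore overlap in large part in this fit, which cannot separate them, and its Nxn value is a description.

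Ependymal cells with motile cilia line the ventricles. Their 9 tested markers summed to 33.4 to 47.9 CPM in fear case and 56.2 to 77.5 CPM in control, without overlap between the groups and with a median log2 fold change of -0.79. By the mean log2 CPM of the same markers fear case 6, at 2.20, was above control 2, at 2.17. Of the 9 markers 8 had a negative log2 fold change and 7 had an unadjusted p under 0.05, as did 7.14% of all genes tested. The 1 called lower in the fit across all genes was the tektin gene Tekt1 (log2 fold change -1.02, SE 0.20, adjusted p = 0.0483). The cilia transcription factor Foxj1 averaged 7.10 ± 1.23 CPM in fear case and 11.2 ± 1.64 CPM in control (log2 fold change -0.66, SE 0.14, adjusted p = 0.0759), and Rsph1, a radial spoke protein of cilia, 8.03 ± 3.14 and 13.96 ± 2.53 CPM (adjusted p = 0.179). Fear case 6 had the highest ependymal sum of its group at 47.9 CPM. The part of these cells in the Nxn difference was not tested, and fewer cells of a type cannot be told apart from less RNA per cell in this tissue.

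**Figure D2:**
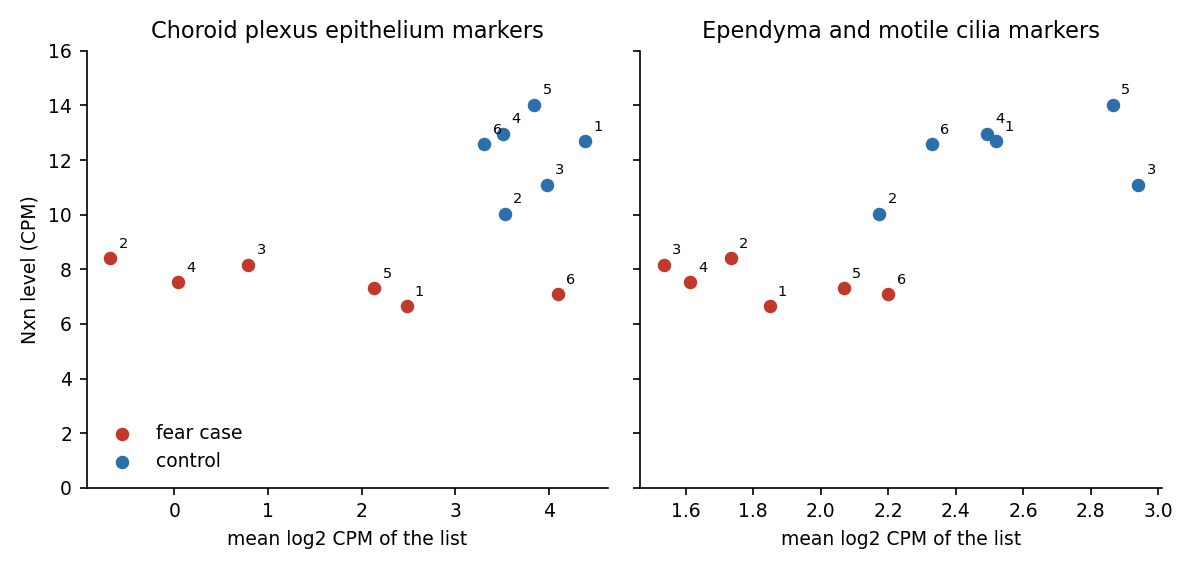
Nxn level in CPM (y axis) against the mean log2 CPM of 20 choroid plexus markers (left) and 9 ependymal markers (right), 1 point per library with its number. On the choroid axis fear case 6 (4.09) lies among the controls (3.31 to 4.38) with Nxn at 7.08 CPM, and the ependymal axis has fear case 6 between controls 2 and 6. Fear case 6 was the deepest library, and the part of either cell type in the Nxn difference was not tested.

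The remaining marker lists had medians nearer 0. The median log2 fold change was -0.30 for 10 leptomeningeal markers, where Igf2 averaged 48.5 ± 28.2 CPM in fear case and 89.6 ± 14.5 CPM in control (adjusted p = 0.18). Of these 10 markers 9 had a negative log2 fold change. Their summed level ran from 82.2 to 175.1 CPM in fear case and from 115.9 to 174.6 CPM in control. The highest fear case library apart from fear case 6 had 114.6 CPM, so this list too leaned lower. The median was -0.21 for 12 endothelial and mural markers, -0.10 for 10 oligodendrocyte markers and -0.03 for 10 astrocyte markers. For 10 microglial markers it was -0.02 and for 12 markers of excitatory neurons 0.02. Of the endothelial and mural markers 10 had a negative log2 fold change, and of the oligodendrocyte markers 8. In the astrocyte, microglial and neuronal lists 6 each were negative, and 0 genes of these lists passed the test. The most abundant endothelial and mural, astrocyte and neuronal markers had adjusted p-values of 0.891 (Rgs5, of pericytes), 0.868 (Slc1a2, the glial glutamate transporter) and 0.797 (Snap25, of synapses). Their log2 fold changes were 0.12, 0.13 and 0.08. Rgs5 had the highest value of its list and so does not stand for it, the lowest being Tek at -0.87.

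The thioredoxins did not pass the test. Cytosolic Txn1 (chr4:57943373-57956411, minus strand) ran from 22.01 through 28.4 to 30.6 CPM in fear case and from 21.2 through 27.3 to 31.7 CPM in control. The groups overlapped over nearly their whole range, and the lowest library of each was number 6. The log2 fold change was 0.05 (95% interval -0.17 to 0.27, adjusted p = 0.946), and 0.11 (SE 0.10) without fear case 6. Txn1 has 1.051 kb of exon, which puts it among the short genes that were low in fear case 6 and control 6, and 3.75% of its 40-base stretches also occur in the pseudogene Txn-ps1.

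Within fear case the level of Txn1 ran against the choroid plexus score, with r = -0.94 (exact permutation p = 0.00278, adjusted p = 0.05 over 18 relations) and rho = -0.94 (exact p = 0.0167, adjusted p = 0.1, n = 6). In control r was 0.38 (exact p = 0.45, n = 6) and rho 0.26 (exact p = 0.658). Neither relation was under the threshold of 0.05 after adjustment, and r without the 2 farthest libraries was -0.999 in fear case and 0.27 in control.

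Mitochondrial Txn2 (chr15:77915047-77929006, minus strand) ran from 65.5 through 90.1 to 93.6 CPM in fear case and from 83.7 through 87.3 to 96.4 CPM in control. Fear case 6 alone was below the controls, at 65.5 CPM, with its nearest neighbour in the group at 88.1 CPM. For Txn2 the log2 fold change was -0.04 (95% interval -0.21 to 0.13, adjusted p = 0.951). Without fear case 6 the sign turned, to 0.03 (SE 0.06, adjusted p = 0.947).

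The reductases leaned in opposite directions, and neither passed the test. Txnrd1 (chr10:82833951-82897712, plus strand), which recharges cytosolic thioredoxin, ran from 70.5 through 78.2 to 84.1 CPM in fear case and from 68.8 through 73.2 to 75.4 CPM in control. In 4 of 6 fear case libraries it was above every control. The means were 77.1 ± 5.70 CPM in fear case and 72.8 ± 2.16 CPM in control (SD, n = 6 each). The log2 fold change of Txnrd1 was 0.08 (95% interval -0.05 to 0.22, adjusted p = 0.822), and 0.11 (SE 0.06) without fear case 6.

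Txnrd2 (chr16:18426384-18479073, plus strand), its mitochondrial counterpart, ran from 7.78 through 10.4 to 12.1 CPM in fear case and from 10.9 through 11.4 to 12.3 CPM in control. In 4 of 6 fear case libraries it was below every control, and fear case 6 was the lowest. The log2 fold change was -0.19 (95% interval -0.44 to 0.06, adjusted p = 0.77), and -0.13 (SE 0.12) without fear case 6.

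Txnip (chr3:96557957-96561883, plus strand), the thioredoxin inhibitor, ran from 6.96 through 9.76 to 12.4 CPM in fear case and from 7.39 through 9.25 to 12.4 CPM in control. The groups covered nearly the same range. For Txnip the log2 fold change was 0.04 (95% interval -0.29 to 0.36, adjusted p = 0.981), and -0.05 (SE 0.16) without fear case 6. The predicted gene Gm15441 overlaps 19.4% of the Txnip exons, and since the labels do not say whether counting used strand, reads there cannot be told apart.

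Levels of Txnip had a positive r with the choroid plexus score in fear case and a negative one in control. In fear case r was 0.95 (exact permutation p = 0.0111, adjusted p = 0.1) and rho 0.94 (exact p = 0.0167, n = 6), and in control r was -0.84 (exact p = 0.0375, adjusted p = 0.169) and rho -0.94 (exact p = 0.0167, n = 6). Without the 2 farthest libraries r was 0.94 in fear case and -0.56 in control. Neither passed after adjustment over the 18 relations, and the difference between the groups in this relation was not tested.

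None of the 3 Dishevelled genes passed the test. Dvl1 (chr4:155847402-155859303, plus strand) ran from 33.7 through 41.6 to 49.5 CPM in fear case and from 43.7 through 47.4 to 50.5 CPM in control. In 4 of 6 fear case libraries it was below every control, with fear case 3 at 33.7 and fear case 6 at 35.8 CPM the lowest. The means were 41.5 ± 6.16 CPM in fear case and 47.1 ± 2.34 CPM in control (SD, n = 6 each). For Dvl1 the log2 fold change was -0.18 (95% interval -0.37 to 0.0034, adjusted p = 0.709), and -0.14 (SE 0.09) without fear case 6.

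Dvl2 (chr11:70000595-70012301, plus strand) was the least abundant member and the most scattered among the controls. It ran from 5.49 through 6.18 to 7.03 CPM in fear case and from 4.46 through 7.21 to 9.78 CPM in control. Controls 1, 3 and 6 lay above every fear case library, and control 2 lay below all of them. For Dvl2 the log2 fold change was -0.23 (95% interval -0.61 to 0.15, adjusted p = 0.821), and -0.27 (SE 0.19) without fear case 6. Exons of Acadvl and Mir324 overlap 19.7% of the Dvl2 exons.

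Dvl3 (chr16:20516982-20534010, plus strand) ran from 43.4 through 49.6 to 57.5 CPM in fear case and from 48.3 through 53.3 to 58.2 CPM in control. Only fear case 6, at 43.4 CPM, lay outside the control range. For Dvl3 the log2 fold change was -0.06 (95% interval -0.22 to 0.10, adjusted p = 0.902), and -0.02 (SE 0.07) without fear case 6.

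**Figure D3:**
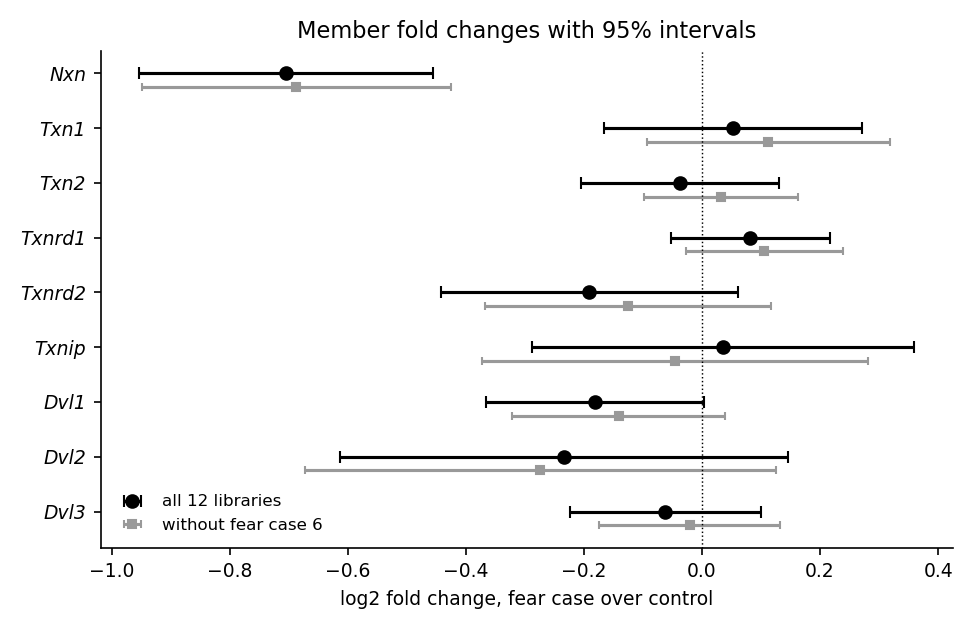
Log2 fold change of each member, fear case over control (x axis), with its 95% interval, from all 12 libraries (black) and without fear case 6 (grey). Nxn sits at -0.70 and -0.69, and its interval rests on the values that chose the set and is no test of its difference. The intervals of the other 8 members include 0 in both fits.

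Per kilobase of exon the members spanned more than an order of magnitude. The mean level over the 12 libraries was 26.0 RPKM (CPM per kilobase of exon) for Txn1, 20.9 for Txn2, 10.6 for Txnrd1, 8.87 for Dvl1, 8.08 for Dvl3, 3.12 for Txnip, 3.05 for Nxn, 2.44 for Txnrd2 and 1.08 RPKM for Dvl2. In this order the ranges over libraries separated Txn2 from Txnrd1, Dvl3 from Txnip and Txnrd2 from Dvl2. The ranges of the other neighbours overlapped, although Txnrd1 was above Dvl1 within each of the 12 libraries, and Txn1 was above Txn2 in 11, Dvl1 above Dvl3 in 10, Nxn above Txnrd2 in 10 and Txnip above Nxn in 6. With the longest transcript as the length Txn2 came before Txn1, Dvl3 before Dvl1, and Txnrd2 and Nxn before Txnip.

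**Figure D4:**
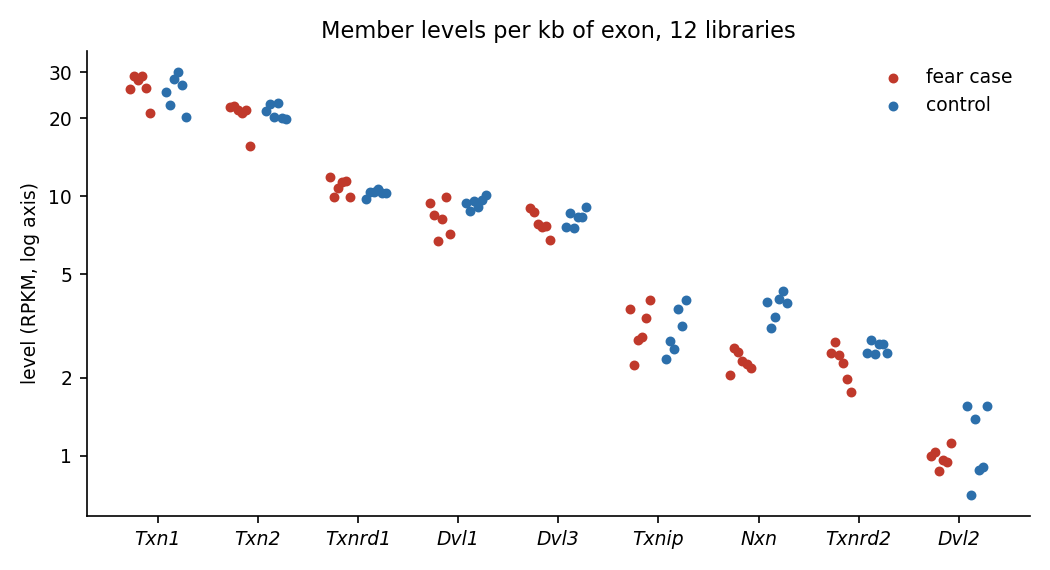
Level of each member in RPKM per library (log axis), fear case left of control, ordered by the mean over libraries. Txn1 (26.0 RPKM) and Txn2 (20.9 RPKM) are highest, Dvl2 (1.08 RPKM) is lowest, and Nxn is the member whose groups separate.

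The RNA level of Nxn was also set against that of the genes whose proteins it binds. Its level was 2.32 ± 0.205 RPKM in fear case and 3.78 ± 0.441 RPKM in control, while the sum of Dvl1, Dvl2 and Dvl3 was 17.2 ± 1.76 and 18.8 ± 0.960 RPKM (SD, n = 6 each). The ratio of Nxn to that sum was 13.6% ± 2.00 in fear case (10.6% to 16.3%) and 20.05% ± 2.26 in control (17.1% to 22.9%), without overlap between the groups. The ratio contains the Nxn values that chose the set and gets no test. Within the Dishevelled sum Dvl1 made up 48.2% in fear case and 50.03% in control, Dvl3 46.1% and 43.8%, and Dvl2 5.79% and 6.14%.

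The genes most like Nxn from library to library, once the group means were removed, were sought among 13503 genes with at least 1 CPM on average. Pearson's r of the residuals over the 12 libraries was 0.92 for Mmachc, a vitamin B12 processing enzyme, 0.89 for Cecr6, 0.87 for Pigh, which works in GPI anchor synthesis, 0.87 for A930024E05Rik and 0.86 for Abcb9, a lysosomal peptide transporter. These are the highest of many values and carry no p. Mmachc averaged 17.8 ± 2.01 CPM in fear case and 18.5 ± 2.48 CPM in control, and the 5 genes had log2 fold changes of -0.25 to 0.12 between groups, with adjusted p-values of 0.765 (Abcb9) to 0.982 (A930024E05Rik). Among the members themselves the same residual r of Nxn was -0.09 with Dvl1, 0.13 with Dvl2 and 0.05 with Dvl3, as a description.

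Genes around the members were read from 8 lists drawn from the known pathways, 147 genes of which 135 were tested. None of them passed the test in either direction in the edgeR quasi-likelihood fit. An unadjusted p under 0.05 was found for 9, or 6.67%, beside 7.14% of all genes tested. By DESeq2 1 was called, Dact3. Of these genes 3 had all fear case libraries below all controls, Dact3, Nkd1 and Gpx4, and 0 had all above. That is 2.22% below, beside 0.33% of all genes tested below and 0.268% above, and nothing particular to the lists is read from it. The median log2 fold change over the 135 genes was -0.013, beside -0.0046 over all genes tested.

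Dact3, a Dapper protein that binds Dishevelled, had the lowest p of these lists. It ran from 82.9 through 92.4 to 103 CPM in fear case and from 106 through 116 to 127 CPM in control, without overlap. The log2 fold change was -0.32 (SE 0.07, adjusted p = 0.108 by edgeR). It passed in 2 of 20 alternative analyses, by DESeq2 (adjusted p = 0.0114) and by edgeR without fear case 6 (log2 fold change -0.30, adjusted p = 0.0456), and over the 20 its adjusted p reached 0.483. Its relative Dact1 had a median of 10.4 CPM in fear case and 12.2 CPM in control (log2 fold change -0.24, adjusted p = 0.725). Pfkl, the liver-type phosphofructokinase, stood at 0.04 on the log2 scale (adjusted p = 0.934).

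Among 11 tested Wnt target genes, Nkd1, which binds Dishevelled and dampens the signal, ran from 13.0 through 14.4 to 15.4 CPM in fear case and from 16.2 through 17.2 to 21.3 CPM in control. The groups did not overlap, and the log2 fold change of -0.31 (SE 0.10) had an adjusted p of 0.397. Rnf43, a ubiquitin ligase that removes Frizzled receptors, averaged 1.72 ± 0.399 CPM in fear case and 2.71 ± 0.573 CPM in control (log2 fold change -0.66, SE 0.25, adjusted p = 0.559). Lef1, a transcription factor of the pathway that is in the core list too, averaged 4.24 ± 1.18 and 5.92 ± 1.14 CPM (log2 fold change -0.48, SE 0.19, adjusted p = 0.603). The median of the target list was 0.02.

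The Wnt beta-catenin core, with 28 tested genes and a median of -0.04, and the planar cell polarity genes, with 18 tested and a median of 0.04, had no gene past the test. Apc, the scaffold of the beta-catenin destruction complex, stood at 0.14 on the log2 scale (adjusted p = 0.69) and Bcl9l, a beta-catenin coactivator, -0.16 (adjusted p = 0.718). In the polarity list Mapk10 and Mapk8, which encode Jun kinases, had 0.14 and 0.13 (adjusted p = 0.668 and 0.733), and Vangl1, a membrane component of the polarity complex, -0.41 (adjusted p = 0.724).

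On the redox side, Gpx4, the selenoenzyme that reduces lipid hydroperoxides, ran from 183 through 240.1 to 255 CPM in fear case and from 256 through 268 to 291 CPM in control. The groups did not overlap, though fear case 5 at 255.3 and control 5 at 255.9 CPM nearly met. The log2 fold change was -0.23 (SE 0.07, adjusted p = 0.404), and -0.17 (SE 0.06) without fear case 6, the lowest library. In the same list of 23 Nrf2 and antioxidant genes, whose median was -0.07, Pgd of the pentose phosphate pathway had -0.21 (adjusted p = 0.742) and Nqo1, a quinone reductase, -0.38 (adjusted p = 0.755).

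The 23 tested thioredoxin-fold oxidoreductases had a median of 0.0058. Glrx5, a mitochondrial glutaredoxin of iron-sulfur cluster assembly, had the lowest p of the list, with 28.7 ± 3.32 CPM in fear case and 34.2 ± 2.61 CPM in control (log2 fold change -0.25, SE 0.09, adjusted p = 0.506). Tmx3, a disulfide isomerase of the endoplasmic reticulum, had 0.20 (adjusted p = 0.738) and Glrx3, a cytosolic glutaredoxin, -0.19 (adjusted p = 0.826).

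The 14 clients of thioredoxin had a median of -0.07. Rrm2b, a subunit of ribonucleotide reductase, stood at 0.13 on the log2 scale (adjusted p = 0.712), Msrb3, a methionine sulfoxide reductase, -0.40 (adjusted p = 0.718) and Prdx5, a peroxiredoxin, -0.12 (adjusted p = 0.795). Among 10 tested relatives of Txnip and glucose-responsive genes, with a median of -0.04, Mlx, which pairs with the glucose-sensing transcription factors, had -0.20 (adjusted p = 0.701), Mlxipl, one of those factors, 0.71 at about 1 CPM (SE 0.42, adjusted p = 0.756) and the alpha-arrestin Arrdc3 0.17 (adjusted p = 0.756).

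**Figure D5:**
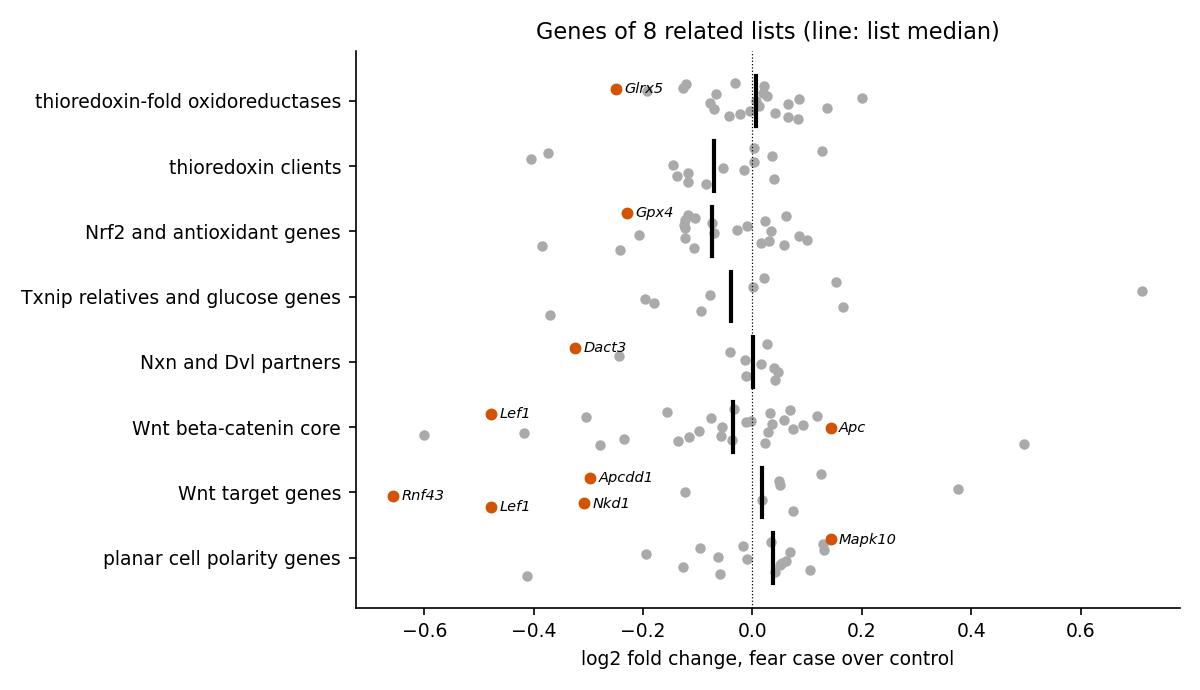
Log2 fold change, fear case over control (x axis), of each tested gene in the 8 lists, with the list median as a line and genes with an unadjusted p under 0.05 in orange and named. The medians lie between -0.07 and 0.04, and 0 of the 135 genes passed the test across all genes, Dact3 having the lowest adjusted p at 0.108.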

How the data were processed

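Polyribosomal RNA of hippocampus was sequenced as 40 bp read pairs from a SMARTer total RNA library, per the labels' protocols. The authors deposited 1 file per library with whole-number counts for each gene symbol, not normalized. Tools named in the submitters' processing notes are HTSeq, Bowtie, TopHat and cutadapt, and the build is mm10; versions, annotation and strand use are not stated there. Counts on no gene (25.5% to 33.3%) and ambiguous counts (0.453% to 0.550%) stayed out of library sizes.

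The 6 fear case and 6 control libraries, grouped by the labels, were compared in R 4.3.3 with edgeR 4.0.16: filterByExpr (minimum count 10, minimum total 15), TMM scaling, and the quasi-likelihood test without covariates, with Benjamini-Hochberg adjustment over 14564 genes calls being made at an adjusted p under 0.05. The SE is the log2 fold change over the square root of F, and 95% intervals use the t distribution of the fit. CPM use TMM-scaled sizes, log2 CPM a prior count of 2, and RPKM the exon union of GENCODE vM21. At the median depth 1 CPM is 21.8 counts. Within groups no pair of libraries looked like the same library sequenced again, the chi-square per degree of freedom being at least 8.09. Pairs across groups were not compared, and separate preparations from the same mouse would go unseen.

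Members and lists were chosen with earlier results of these data known. Genes named are the 9 members, 3 per pathway list by lowest p, Ttr, Kl, Foxj1, the most abundant marker of each other list, Fos, Npas4, Arc, and the 5 genes most like Nxn, of which 2 markers are not reported here; Rsph1 and Igf2 are the most abundant markers of their lists, and Prox1, Wfs1, Slc17a7 and Tekt1 stand outside this rule, Tekt1 chosen after its values were seen. Alternatives were another scaling, other filters, DESeq2 1.42.0, limma-voom (limma 3.58.1), library sizes without structural RNAs, a replicate block, a choroid plexus covariate, leaving out each library, and for levels another length or prior count.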

Additional observations from a re-analysis of the deposited data

Results flagged for a closer look

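Of 34 sets of 6 values examined for a stray library (the 9 members and 8 marker lists in each group), 2 had one, and chance marks about 1 set in 20. Txn2 in fear case had 65.5 CPM in fear case 6, far below the other 5 libraries at 88.1 to 93.6 CPM. The markers of hippocampal excitatory neurons in control had a mean log2 CPM of 7.28 in control 1, above the other 5 controls at 7.01 to 7.09.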

How the results depend on the processing

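Over 20 alternatives the log2 fold change of Nxn ran from -0.82 (choroid plexus covariate) to -0.66 (without control 5). The count of members called, 1, was 0 with the covariate and 0 with the replicate block, and stayed 1 when any single library was left out. The member called was Nxn each time, so this count restates how the set was chosen and gives no support to the Nxn difference. Counts of all genes depended more on the setting. Against 7 called higher, 11 were called without a filter, 13 by DESeq2 and 5 with the covariate, and 6 to 12 with 1 library left out. Against 8 called lower, 26 were called without a filter, 4 with at least 1 CPM in 6 libraries, 48 by DESeq2, 5 by limma-voom and 0 with the covariate, and 3 to 116 with 1 library left out, the highest without fear case 6. Of the pathway genes 1 was called by DESeq2, and 0 to 1 with 1 library left out. The sign of the smallest member changes was not fixed: Txn1 had -0.14 with the covariate and -0.0068 to 0.11 with 1 library left out, Txn2 -0.062 to 0.031 and Txnip -0.045 to 0.12. The covariate moved several others by over 1.5 times: it gave -0.21 for Txn2, 0.29 for Txnip, -0.43 for Txnrd2, -0.12 for Dvl2, -0.17 for Dvl3 and -0.40 for Gpx4, none with an adjusted p under 0.05. With the longest transcript as length, mean log2 RPKM moved to 5.42 for Txn2, 4.37 for Txnrd1, 3.70 for Dvl3 and 1.90 for Txnrd2. Without the 2 libraries farthest from the median choroid plexus score, r turned to 0.86 for Txn2, 0.71 for Dvl1 and 0.66 for Dvl3 in fear case and to 0.89 for Dvl1 in control. The cause of these shifts was not tested. Replicate numbers showed no pairing of the libraries. With group means removed, same-numbered ones correlated at -0.17 to 0.047 over all genes tested, and none matched its own number best. A batch shared by number could go unseen by this check. With the replicate block Nxn had a log2 fold change of -0.70 (SE 0.13), 7 genes were called higher and 11 lower. Depth limits most the genes at a few CPM, among them Mlxipl, Rnf43 and Dvl2.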
